A study of Schmidtea mediterranea with 50 samples.

Results

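The comparison described here set whole planarians fed double-stranded RNA against *chd4* beside control animals at day 6 of the treatment. It rests on 6 libraries, those labelled *chd4*(RNAi) day 6 replicates 1 to 3 and *unc22*(RNAi) day 6 replicates 1 to 3, of the 50 libraries in the series, and each was assigned to its group by its label. The animals were *Schmidtea mediterranea* of the asexual CIW4 strain, and each library was made from a pool of 10 worms, so it holds no value for a single worm or a single tissue. In the *chd4*(RNAi) group the worms ate RNAi food against *chd4*. In the control group they ate food with *unc22* RNA, which serves in this study as the non-targeting treatment. RNAi food was given 3 times, on days 0, 3 and 6, the first feeding marking day 0. The sources used here do not say whether the feeding of day 6 (or of day 3) came before the collection on that day. Poly(A)-selected RNA was sequenced from the whole animal, and the other days of *chd4*(RNAi) and the *p53*(RNAi) animals of day 6, which ate food against *p53* on the same schedule, are used below only to show where day 6 of *chd4*(RNAi) differed. The age of the worms was not given in the sources used here.

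CHD4 is a helicase that slides nucleosomes along DNA and sits in the NuRD complex, where it works beside histone deacetylases and the histone-binding protein RBBP4. In planarians the dividing cells are neoblasts, stem cells that express the piwi gene *smedwi-1*. Their epidermal descendants pass through mesenchymal progeny stages, marked in late progeny by *AGAT-1*, before they reach the skin, and *chd4* is known as a gene that neoblasts need to produce such progeny.

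The 6 libraries held 16.9 to 21.4 × 1e6 reads in *chd4*(RNAi) and 19.8 to 21.8 × 1e6 reads in the control, as read from the steps of the RPKM values, which count reads per kilobase of transcript and scale them to library size. Replicates correlated at r = 0.9895 to 0.991 among the *chd4*(RNAi) libraries and 0.9871 to 0.9913 among the control libraries, over 25079 transcripts on the log2(RPKM + 0.5) scale. The lowest of these values involved control replicate 2, and counts without that library are given where they moved. A transcript was called where limma's p-value, adjusted by the Benjamini-Hochberg method over all 25079 tested transcripts, was under 0.05. Every adjusted p below is from that fit. Where a call was lost when 1 of the 6 libraries was left out, the number of such libraries is given with the highest adjusted p among them. Every log2 difference is *chd4*(RNAi) minus control of log2(RPKM + 0.5), which understates the change of transcripts below about 1 RPKM.

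The targeted transcript was low in each treated library. *chd4* (SMED30024368) stood at 10.1, 10.5 and 10.9 RPKM in *chd4*(RNAi), against 43.6, 39.4 and 44.3 RPKM in the control, with no overlap. The treated mean was 24.8% of the control mean, a log2 difference of -1.96 (SE 0.06, limma adjusted p = 3.43e-25), and these values rest on 1238 to 1616 reads a library in *chd4*(RNAi) and 5641 to 6985 in the control. The knockdown was of nearly this size at day 3 already, with a log2 difference of -1.84, and the change at day 6 did not differ detectably from it (adjusted p = 0.749). Of 8 transcripts described as NuRD or LSD1 chromatin genes, 3 were lower, among them *chd4* itself (37.5%, against 22.1% of all tested transcripts with a description). The other 2 differences were small: RBBP4 (SMED30022238), at 21.8, 20.3 and 18.9 RPKM in *chd4*(RNAi) and 24.2, 26.7 and 22.8 in the control, had a log2 difference of -0.27, and histone deacetylase 1 (SMED30035373) of -0.16. Each of these calls was lost without 4 of the 6 libraries taken 1 at a time (highest adjusted p = 0.201 and 0.262, both without control replicate 2). A more abundant transcript also described as RBBP4 (SMED30028689) was not called. It had 72.3, 68.4 and 61.7 RPKM in *chd4*(RNAi) and 76.4, 77.1 and 73.9 RPKM in the control. *p53* was not called, at 45.8 ± 2.86 RPKM in *chd4*(RNAi) and 40.1 ± 0.53 RPKM in the control (SD, n = 3 each, adjusted p = 0.608).

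At day 6, 964 transcripts were lower and 781 were higher in *chd4*(RNAi) than in the control, 3.84% and 3.11% of those tested. Most of the changes were small: the median log2 difference was -0.37 among the lower and 0.32 among the higher calls, and 1194 of the 1745 calls lay within 0.5. Beyond 1 on the log2 scale, 68 transcripts fell and 75 rose (0.271% and 0.299% of those tested). In 67 of these 68 and in all 75 the 3 treated libraries did not overlap the 3 control libraries, while 12.8% of all tested transcripts were separated in this way with *chd4*(RNAi) lower and 10.5% with it higher. Leaving out *chd4*(RNAi) replicate 3 gave 504 lower and 485 higher calls, and leaving out control replicate 2 gave 517 lower and 557 higher. Of the 1745 calls, 690 were made whichever of the 6 libraries was left out, as were 121 of the 143 beyond 1. Only 13 of the 68 and 15 of the 75 carried a protein description, since the study described transcripts that it had picked from later days of this series. Among the 1595 tested transcripts with a description, 22.1% were lower and 6.46% higher, so the counts of the lists below are read against both backgrounds.

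**Figure D1:**
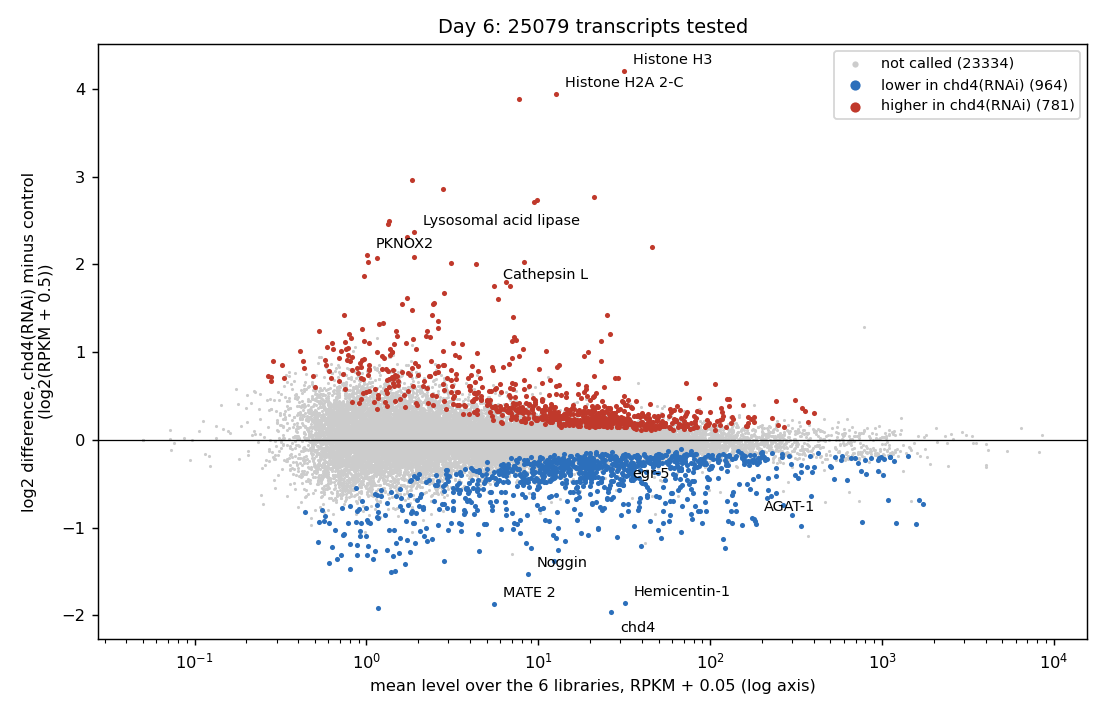
Log2 difference between *chd4*(RNAi) and control at day 6 (vertical axis, log2(RPKM + 0.5)) against the mean level over the 6 libraries (horizontal axis, RPKM + 0.05, log scale) for the 25079 tested transcripts. Blue points are the 964 lower and red points the 781 higher calls, grey points are not called; histone H3 and histone H2A type 2-C lie at the top and *chd4* at the bottom.

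The 2 largest rises were those of transcripts for core histones, the proteins around which DNA is wound. Histone H3 (SMED30021776) was measured at 55.5, 61.2 and 64.2 RPKM in *chd4*(RNAi), against 2.98, 2.95 and 2.47 RPKM in the control. Every treated library was far above every control library, and the ratio of the means was 21.5 (log2 difference 4.21, SE 0.17, limma adjusted p = 3.48e-21), from 610 to 851 reads a library in *chd4*(RNAi) and 35 to 42 in the control. Histone H2A type 2-C (SMED30011413) followed with 23.2, 25.3 and 24.3 RPKM in *chd4*(RNAi) and 0.767, 1.28 and 1.34 RPKM in the control (log2 difference 3.94, SE 0.18, adjusted p = 2.75e-19).

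Transcripts of H4 and H2B were higher as well. The histone H4 transcript SMED30025482 had 17.3, 15.3 and 19.2 RPKM in *chd4*(RNAi) and 2.18, 3.2 and 1.41 RPKM in the control, and the H4 transcript SMED30033466 had 14.2, 17 and 18.5 RPKM against 2.09, 2.52 and 1.74 RPKM. Both rose by about the same amount, with log2 differences of 2.73 (SE 0.22) and 2.71 (SE 0.22). Late histone H2B.2.1 (SMED30011775), whose description the histone list does not match, stood at 11.8, 13.8 and 15.0 RPKM in *chd4*(RNAi) and 2.68, 3.46 and 2.66 RPKM in the control (log2 difference 2.03, SE 0.19, adjusted p = 5.46e-10).

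Of the 12 transcripts on the histone list, 7 rose and 0 fell (0 fell at an unadjusted p under 0.05 as well), 58.3% of the list against the 3.11% of all transcripts that rose. The count was 6 without *chd4*(RNAi) replicate 3 and 7 without any other of the 6 libraries. The remaining risers were smaller, and they were listed after their values were seen: histone H2B.1/H2B.2 (SMED30021461; log2 difference 1.12), histone H2A (SMED30016975; 0.84) and histone H2A type 1 (SMED30015694; 0.34). The 5 members that were not called were described as histones H2A.Z (log2 difference -0.21), H2A.v (-0.13), H2A-IV (-0.10) and H2A.J (-0.05), and the histone RNA hairpin-binding protein (-0.15), which binds the stem loop at the end of histone mRNAs and is no histone itself. H2A-IV was by far the most abundant of the list, at 380 to 451 RPKM in *chd4*(RNAi) and 430 to 473 RPKM in the control, so the summed level of the list moved little, to 767 to 846 RPKM in *chd4*(RNAi) against 701 to 766 RPKM in the control. In animals most mRNAs of the core histones made during DNA replication end in a stem loop without a poly(A) tail, and these libraries were built from poly(A)-selected RNA, so the values are levels of polyadenylated histone RNA. Histone genes can occur in near-identical copies, and reads matching up to 5 transcripts were kept by the study, so the split among copies is uncertain.

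**Figure D2:**
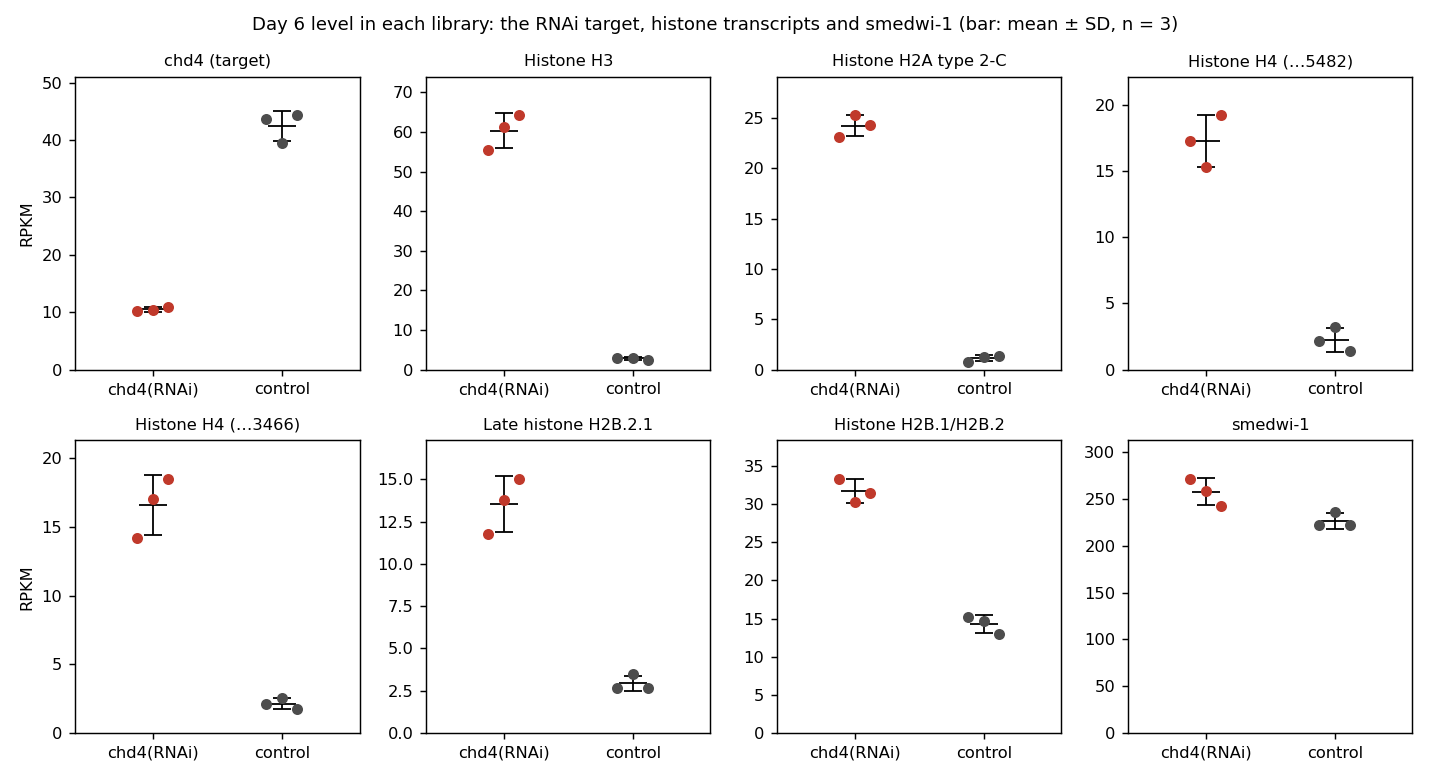
RPKM of *chd4*, 6 histone transcripts and *smedwi-1* in each day 6 library (vertical axes start at 0; red points, *chd4*(RNAi); grey points, control; bars, mean ± SD, n = 3). The groups are apart in the first 7 panels, with *chd4* lower and the histones higher in *chd4*(RNAi), while *smedwi-1* was not called.

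Among the 15 described transcripts that rose beyond 1 were 3 of the lysosome and phagocyte list and 1 ferritin. Lysosomal acid lipase (SMED30002911), which breaks down cholesteryl esters in lysosomes, had 3.67, 3.53 and 3.06 RPKM in *chd4*(RNAi) and 0.220, 0.240 and 0.312 RPKM in the control (log2 difference 2.37, SE 0.20, limma adjusted p = 3.4e-11). The control values stood on 7 to 10 reads a library, and the treated ones on 86 to 111. Cathepsin L (SMED30017650), a lysosomal cysteine protease, had 8.47, 8.92 and 8.58 RPKM in *chd4*(RNAi) and 2.16, 2.41 and 2.1 RPKM in the control, a log2 difference of 1.75 (SE 0.12).

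Across the list of 43 lysosome and phagocyte genes 7 rose and 3 fell (16.3% and 6.98%, against 6.46% and 22.1% of those described). The median log2 difference was 0.01, so the rises did not extend to the list as a whole. Cathepsin B (SMED30010459) was among the 7 with under 1 RPKM in every library. Collectin-11 (SMED30024391), a secreted lectin of innate defence, had 11.8, 11.7 and 9.69 RPKM in *chd4*(RNAi) and 3.84, 5.17 and 6.64 RPKM in the control (log2 difference 1.04, adjusted p = 0.00783), a call that was lost without control replicate 1 alone (adjusted p = 0.0709). Cathepsin L1 (SMED30023109), by contrast, was lower (log2 difference -0.35), and that call was lost without any of 4 libraries (highest adjusted p = 0.124, without control replicate 2).

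Ferritin is the shell protein that stores iron. Ferritin spleen middle subunit (SMED30013255) stood at 3.16, 3.44 and 2.79 RPKM in *chd4*(RNAi), from 37 to 51 reads a library, and at 0.266, 0.218 and 0.198 RPKM in the control, from 3 to 4 reads (log2 difference 2.32, SE 0.22, adjusted p = 7.06e-10). Another ferritin went the other way: SMED30017554, which is much more abundant, was at 108, 109 and 96.6 RPKM in *chd4*(RNAi) and 159, 199 and 165 RPKM in the control (log2 difference -0.73, adjusted p = 0.0294), a call lost without any of 5 libraries (highest adjusted p = 0.151, without control replicate 2). Saxiphilin (SMED30025599), named after a toxin-binding relative of transferrin known from frogs, rose by 0.96. In all, 4 of 15 genes of ferritin, iron and heme rose and 4 fell, 26.7% each, against 6.46% and 22.1% of those described. The falls were 2 without *chd4*(RNAi) replicate 3 and 2 without control replicate 2.

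Homeobox protein PKNOX2 (SMED30025969), a transcription factor of the TALE class, was close to undetected in the control. It had 1.94, 1.74 and 1.88 RPKM in *chd4*(RNAi), from 30 to 34 reads a library, against 0.151, 0 and 0 RPKM in the control, where 1 library held 3 reads and the others none (log2 difference 2.11, SE 0.15, adjusted p = 1.2e-13). The gap junction protein innexin unc-9 (SMED30035331) had 1.94, 3.23 and 2.52 RPKM in *chd4*(RNAi) and 0.549, 0.300 and 0.818 RPKM in the control (log2 difference 1.55). Of the 12 innexins it was the 1 that rose, 4 fell (33.3%, against 22.1% of those described), SMED30032157 the most (log2 difference -0.46), and 7 were not called. The 4 became 2 without *chd4*(RNAi) replicate 2 or 3 or control replicate 2.

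Among transcripts without a description, the largest rises were those of SMED30011448 (log2 difference 3.88), SMED30033256 (2.96), SMED30023175 (2.86) and SMED30019695 (2.77). SMED30011448 had 14.3, 14.4 and 15.6 RPKM in *chd4*(RNAi) and 0.369, 0.538 and 0.732 RPKM in the control, and SMED30019695 had 35.2, 37.8 and 38.3 RPKM against 5.62, 5.94 and 3.74 RPKM. No overlap between the groups was a condition for naming these transcripts, so it adds nothing to the calls. Of the 75 transcripts that rose beyond 1, 41 had a control mean under 1 RPKM.

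The largest falls after *chd4* itself included genes of export, of the extracellular matrix and of signalling. Multidrug and toxin extrusion protein 2 (SMED30019939), of a family that exports organic cations, stood at 2.16, 2.57 and 1.56 RPKM in *chd4*(RNAi) and at 8.71, 9.19 and 8.72 RPKM in the control (log2 difference -1.87, SE 0.18, limma adjusted p = 9.14e-10). Hemicentin-1 (SMED30024938), a large extracellular matrix protein, had 14.4, 14.6 and 11.5 RPKM in *chd4*(RNAi) and 49.1, 53.3 and 47.2 RPKM in the control (log2 difference -1.86, SE 0.09, adjusted p = 1.78e-18). Both were picked among calls without overlap of the groups, so their separation adds nothing to the calls.

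Noggin (SMED30004408), a secreted inhibitor of bone morphogenetic proteins, had 4.15, 4.95 and 3.55 RPKM in *chd4*(RNAi) and 11.6, 15.0 and 12.6 RPKM in the control (log2 difference -1.53, SE 0.15, adjusted p = 1.72e-09). Protein strawberry notch homolog 1 (SMED30035711), known in *Drosophila* as a nuclear component of the Notch pathway, had 4.64, 5.65 and 4.79 RPKM in *chd4*(RNAi) and 11.6, 12.0 and 12.1 RPKM in the control (log2 difference -1.17). These had the largest falls in a list of 20 signalling genes, most of them ligands or receptors, of which 4 fell and 4 rose. Each share was 20%, against 22.1% lower and 6.46% higher among those described. Inhibin beta E chain (SMED30031091), of the TGF-beta family, fell by 0.70. The highest riser, the semaphorin receptor plexin-B2 (SMED30014448), was higher by 0.34, and the count of risers was 2 without any 1 of 5 libraries.

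Further falls with a description were those of multidrug resistance-associated protein 1 (SMED30000258; log2 difference -1.26), an ATP-driven exporter, ACMSD (SMED30019697; -1.12), a decarboxylase of tryptophan breakdown, monocarboxylate transporter 5 (SMED30009811; -1.10) and the riboflavin transporter SLC52 (SMED30034985; -1.09). The exporter had 8.15, 7.34 and 6.89 RPKM in *chd4*(RNAi) and 18.6, 19.0 and 17.8 RPKM in the control. Of 88 transporters on the list 27 fell and 4 rose, and of 12 members of the multidrug and toxin extrusion family 3 fell and 0 rose (0 also at an unadjusted p under 0.05). The falls were 30.7% and 25% of these lists, against 22.1% of all described transcripts. The 27 became 17 without control replicate 2. Among transcripts without a description, SMED30016772 (log2 difference -1.91), SMED30006511 (-1.50), SMED30011951 (-1.50) and SMED30004351 (-1.47) fell most, all from control levels under 3 RPKM.

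Most of the transcripts that the study had stained in the *AGAT-1* mesenchymal pattern by whole-mount in situ hybridization were lower at day 6. Of 57 such transcripts, 46 were lower and 0 were higher in *chd4*(RNAi) (0 also at an unadjusted p under 0.05), 80.7% against 3.84% of all tested transcripts and 22.1% of those with a description. Their median log2 difference was -0.66, against 0.00 over all transcripts and -0.11 over those described, and their summed level was 3279 to 3746 RPKM in *chd4*(RNAi) and 5678 to 6394 RPKM in the control. The count was 43 to 45 with any 1 of the 6 libraries left out. The study chose these transcripts because they were lost on later days of this series, so the list is not independent evidence of its direction. In RNA from whole animals, fewer cells of a type and less RNA per cell cannot be told apart.

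Since several of these transcripts have no protein description, the gene-specific parts of the primers that the study used to clone the 4 that fell most, and *AGAT-1*, are given to identify them. Each is written 5′ to 3′ as it stands in the study's primer table, in capitals because the whole run belongs to the transcript, and without the 13-base tail that the primers on each side share.
SMED30000058 left primer: TTGCAATGACAGGCTGGATTTC
SMED30000058 right primer: TGACATTGATCTTGTTTACTTGCC
*pla2* (SMED30011291) left primer: TGAAAGATATTGAAAAATGCTTTGCCG
*pla2* (SMED30011291) right primer: ATTTAATGTTCCAAGAGCCGCTC
*zpuf-1* (SMED30027156) left primer: GTTGCAGAGGATTTTGACACCC
*zpuf-1* (SMED30027156) right primer: TGTCACACCTCGAATGCAATTG
SMED30016382 left primer: CTTTATCTGCCTTCAAGCAC
SMED30016382 right primer: TGGTCTTTAGCTTCTTCAGC
*AGAT-1* (SMED30018353) left primer: GGATTTCCACCGGTTTTCTGTG
*AGAT-1* (SMED30018353) right primer: AATTGACACGATGTAAGCAGTG

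SMED30000058, which carries no description, stood at 76.9, 76.3 and 64.1 RPKM in *chd4*(RNAi) and at 168, 183 and 161 RPKM in the control (log2 difference -1.23, SE 0.12, limma adjusted p = 7.15e-10). *pla2*, a phospholipase A2 homolog, had 26.6, 22.9 and 21.3 RPKM in *chd4*(RNAi) and 54.3, 57.0 and 53.4 RPKM in the control (log2 difference -1.20, SE 0.11, adjusted p = 3.87e-10). For both, the treated libraries held less than every control library, with *chd4*(RNAi) replicate 3 the lowest.

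*zpuf-1*, 1 of 7 genes on a list of planarian genes that the study named *zpuf*, had 75.6, 81.0 and 66.1 RPKM in *chd4*(RNAi) and 153, 181 and 155 RPKM in the control (log2 difference -1.13, adjusted p = 1.28e-06). SMED30016382 had 19.5, 19.0 and 15.2 RPKM in *chd4*(RNAi) and 38.7, 44.6 and 33.7 RPKM in the control (log2 difference -1.10, adjusted p = 1.36e-07). Of the 7 listed *zpuf* genes 6 fell (85.7%, against 3.84% of all tested transcripts and 22.1% of those described) and 0 rose (0 also at an unadjusted p under 0.05), the exception being *zpuf-6* at 411 ± 32.8 RPKM in *chd4*(RNAi) and 488 ± 45.6 RPKM in the control (SD, n = 3 each, adjusted p = 0.0701). The others had log2 differences of -0.93 (*zpuf-4*), -0.85 (*zpuf-3*), -0.84 (*zpuf-7*), -0.61 (*zpuf-2*) and -0.37 (*zpuf-5*), the last of which was not called without 2 of the libraries (highest adjusted p = 0.088, without control replicate 2).

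*AGAT-1*, a glycine amidinotransferase that makes the precursor of creatine, had 134, 127 and 117 RPKM in *chd4*(RNAi) and 234, 251 and 221 RPKM in the control. The log2 difference was -0.90 (SE 0.10, limma adjusted p = 1.25e-08), and the highest treated library lay well below the lowest control library. Of 5 transcripts described as glycine amidinotransferases 4 fell and 1 rose (80% and 20%, against 22.1% and 6.46% of those described). SMED30009513, at 128, 128 and 111 RPKM in *chd4*(RNAi) and 220, 244 and 218 RPKM in the control, had levels so close to those of *AGAT-1* that reads may be shared between them. The exception, SMED30006337, was higher, at 7.37, 6.56 and 6.88 RPKM in *chd4*(RNAi) and 3.78, 3.46 and 3.76 RPKM in the control (log2 difference 0.83, SE 0.16, adjusted p = 0.000584), and it was already up by 0.86 at day 3.

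*egr-5* (SMED30029873), a zinc finger gene of the Egr type, fell less than the median of this group. It had 25.6, 26.7 and 23.8 RPKM in *chd4*(RNAi) and 33.7, 39.9 and 35.7 RPKM in the control (log2 difference -0.51, SE 0.07, limma adjusted p = 8.85e-07). Of the 29 candidate genes that the study followed further, 18 fell and 0 rose at day 6 (0 also at an unadjusted p under 0.05), with a median log2 difference of -0.43. The falls were 62.1% of these candidates, against 3.84% of all tested transcripts and 22.1% of those described. Named candidates that fell were *slc25a-19* (-0.82), *cyp3141A1* (-0.80), *litaf* (-0.71), *gatm* (-0.64), *cyp3142A1* (-0.57), *cyp3140A1* (-0.57), *mpv17* (-0.43), *acsl-1* (-0.35) and *zfp-2* (-0.28), where the *mpv17* call was lost without 2 of the libraries (highest adjusted p = 0.119) and that of *acsl-1* without 5 (0.108). Not called were *odc-1* (log2 difference -0.06), *adss* (-0.02), *acsl-2* (-0.01), *vim-3* (0.06), *ttpal* (-0.21), *traf-4* (-0.16), *nkx-2.2* (-0.14), *zfp-3* (-0.11), *cyp3143A1* (-0.16) and *cyp3G1* (-0.13). These candidates too were picked by the study from later days.

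Gut transcripts were lower in part. Of 40 that the study saw in the gut, 19 fell and 0 rose (0 also at an unadjusted p under 0.05), with a median log2 difference of -0.28. The falls were 47.5% of the list, against 3.84% of all tested transcripts and 22.1% of those described. The study picked these transcripts too from those lost on later days of this series, so the list is not independent evidence of its direction. The summed level was 4956 to 5433 RPKM in *chd4*(RNAi) and 6051 to 6714 RPKM in the control. Without control replicate 2 the count of falls was 11 and without *chd4*(RNAi) replicate 3 it was 12. An L-cysteine desulfhydrase homolog (SMED30027034), an enzyme that breaks down cysteine, had 26.3, 24.5 and 21 RPKM in *chd4*(RNAi) and 47.0, 52.1 and 43.8 RPKM in the control (log2 difference -0.98). Cytochrome P450 3A24 (SMED30016464), a monooxygenase, fell by 0.91, and D-aspartate oxidase (SMED30033916) by 0.86. Of 25 cytochrome P450 transcripts in all, 5 fell (20%, against 22.1% of those described) and 1 rose, that last being P450 2J6 (SMED30010476) with 3.16, 2.79 and 2.60 RPKM in *chd4*(RNAi) and 0.428, 0.966 and 0.771 RPKM in the control (log2 difference 1.48). The gut transcription factors hepatocyte nuclear factor 4-alpha (SMED30005748; log2 difference -0.31) and GATA-4 (SMED30007290; -0.28), singled out after their values were seen, were both lower, while the homeobox gene *nkx-2.2*, a gut marker on the study's list, was not called (-0.14, adjusted p = 0.661).

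Of 37 genes of lipid handling, 16 fell and 2 rose, 43.2% and 5.41%, against 22.1% and 6.46% of those described. There were 9 falls without *chd4*(RNAi) replicate 3 and 9 without control replicate 2. Beside *pla2*, an elongase of very long chain fatty acids (SMED30030679) had 34.7, 31.8 and 30.9 RPKM in *chd4*(RNAi) and 62.3, 69.7 and 68.2 RPKM in the control (log2 difference -1.03, SE 0.07, limma adjusted p = 6.97e-14). Lipid storage droplets surface-binding protein (SMED30030128), which in insects coats lipid droplets, had 56.0, 56.5 and 53.5 RPKM in *chd4*(RNAi) and 98.7, 105 and 96.6 RPKM in the control (log2 difference -0.85, SE 0.06, adjusted p = 9.24e-13). The spread between replicates was small next to both differences. Of 9 transcripts stained in the epidermis, from the same staining screen, 4 fell and 0 rose (0 also at an unadjusted p under 0.05), 44.4% against 22.1% of those described. Among the 4 were calumenin-A (SMED30003044; -0.85) and Rab-27B (SMED30031862; -0.59), and the count was 2 without *chd4*(RNAi) replicate 3 and 2 without control replicate 2.

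Few stem cell and cell cycle transcripts were called at day 6. *smedwi-1* had 272, 259 and 243 RPKM in *chd4*(RNAi) and 222, 236 and 222 RPKM in the control. All treated libraries were above all control libraries, but the log2 difference of 0.18 (SE 0.11) did not pass the test (limma adjusted p = 0.389). Of 64 genes of DNA replication and the cell cycle, 2 fell and 1 rose, 3.12% and 1.56%, against 3.84% and 3.11% of all transcripts and 22.1% and 6.46% of those described. In 51 of the 64 the log2 difference was below 0, and their summed level was 679.2 to 733.6 RPKM in *chd4*(RNAi) and 761.1 to 778.2 RPKM in the control, with no overlap. The described transcripts as a whole behaved alike, with 1177 of 1595 below 0. Their summed level, 120020 to 128510 RPKM in *chd4*(RNAi) and 133570 to 148460 RPKM in the control, did not overlap either. The 1 riser of the cell cycle list was M-phase inducer phosphatase (SMED30035864), the Cdc25-type activator of cyclin-dependent kinases, with 10.6, 9.33 and 10.8 RPKM in *chd4*(RNAi) and 6.57, 6.85 and 5.27 RPKM in the control (log2 difference 0.68, adjusted p = 0.00016). A ribonucleotide reductase subunit (SMED30026659) had a log2 difference of -0.35 and condensin subunit 3 (SMED30031186) of -0.25, the first of which was not called without 2 of the libraries (highest adjusted p = 0.16, without *chd4*(RNAi) replicate 3).

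Of 21 transcripts stained in neoblasts 1 fell, the undescribed SMED30029717 (-0.78), and 1 rose, zinc finger protein 341 (SMED30023708; 0.39), and the first call was lost without any of 3 libraries (highest adjusted p = 0.0664, without control replicate 3) and the second without any of 5 (0.145, without control replicate 1). Each share was 4.76%, against 22.1% lower and 6.46% higher among those described. The summed level of these 21 was 680 to 731 RPKM in *chd4*(RNAi) and 718 to 800 RPKM in the control. Of 11 piwi and germ granule genes 0 fell (2 at an unadjusted p under 0.05) and 1 rose, the RNA-binding protein boule-like (SMED30020626), with 9.07, 8.84 and 9.06 RPKM in *chd4*(RNAi) and 5.62, 5.39 and 5.84 RPKM in the control (log2 difference 0.63, adjusted p = 8.86e-07). Of 19 genes of DNA repair 0 were called in either direction by limma, and at an unadjusted p under 0.05 there were 2 lower and 0 higher.

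Among 39 transcription factors 7 fell and 7 rose, 17.9% each, against 22.1% and 6.46% of those described. After PKNOX2 the rises were small. Early growth response protein 4 (SMED30034500) had 2.97, 4.41 and 3.80 RPKM in *chd4*(RNAi) and 2.09, 2.50 and 2.50 RPKM in the control (log2 difference 0.55, adjusted p = 0.00375, or 0.0545 without *chd4*(RNAi) replicate 2). Early growth response protein 1 (SMED30012510) rose by 0.30 and *fos-1*, a partner of Jun in the AP-1 factor, by 0.20, with 46.0, 46.3 and 46.7 RPKM in *chd4*(RNAi) and 40.4, 40.5 and 39.8 RPKM in the control. In all, 3 of 9 immediate early and early growth response transcripts rose and 1, *egr-5*, fell (33.3% and 11.1%, against 6.46% and 22.1% of those described). *jun-1* (log2 difference 0.06) and *egr-3* (0.21) were not called. Another transcript described as early growth response protein 1 (SMED30012332) was not called either. It had 46.9, 44.9 and 38.1 RPKM in *chd4*(RNAi) and 44.1, 44.3 and 39.9 RPKM in the control. The early growth response protein 4 transcripts SMED30022030 and SMED30029780 were also not called.

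Other lists held few or small changes. Caspase-3 (SMED30010444), an executioner protease of apoptosis, rose, with 10.4, 11.1 and 10.8 RPKM in *chd4*(RNAi) and 6.44, 6.86 and 7.27 RPKM in the control (log2 difference 0.62, adjusted p = 1.22e-05). Caspase-7 (SMED30029698; -0.24) and the cell death protein BAK (SMED30014459; -0.27) were lower, and neither was called without control replicate 2 (adjusted p = 0.111 and 0.107), nor Caspase-7 without *chd4*(RNAi) replicate 3. Transcripts of a retrovirus-like Pol polyprotein (SMED30033630; 0.52) and a Gag-Pol polyprotein (SMED30012288; 0.47) rose, while 3 of the 12 tested transposon-related transcripts fell, a count that was 1 without *chd4*(RNAi) replicate 2 or 3 or control replicate 2. Of these 12, 25% fell, near the 22.1% of those described, and 16.7% rose, against 6.46%. Of 14 heat shock and chaperone genes 6 fell and 1 rose, the riser being heat shock 70 kDa protein (SMED30017448; 0.52). All 34 ribosomal protein transcripts had a log2 difference below 0, with a median of -0.16, and 8 were called lower. These falls were 42.9% and 23.5% of the 2 lists, against 22.1% of those described. Without *chd4*(RNAi) replicate 3, 0 of the heat shock and 0 of the ribosomal transcripts were called lower, and without control replicate 2 the counts were 1 and 0. Of 29 neural genes 2 fell and 3 rose, of 16 genes of muscle and matrix 4 fell and 2 rose, of 27 TNF receptor-associated factors 4 fell and 1 rose, of 4 genes of cilia 1 fell and 2 rose, and of 12 protease inhibitors 0 fell (0 also at an unadjusted p under 0.05) and 1 rose. In this order the falls were 6.9%, 25%, 14.8%, 25% and 0%, against 22.1% of those described. The rises were 10.3%, 12.5%, 3.7%, 50% and 8.33%, against 6.46%. With 1 library left out the neural rises were 1 to 2, the falls in muscle and matrix 2 to 3, those of the TNF receptor-associated factors 1 to 3, the fall in cilia 0 to 1 and the rise of the protease inhibitors 0 to 1.

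**Figure D3:**
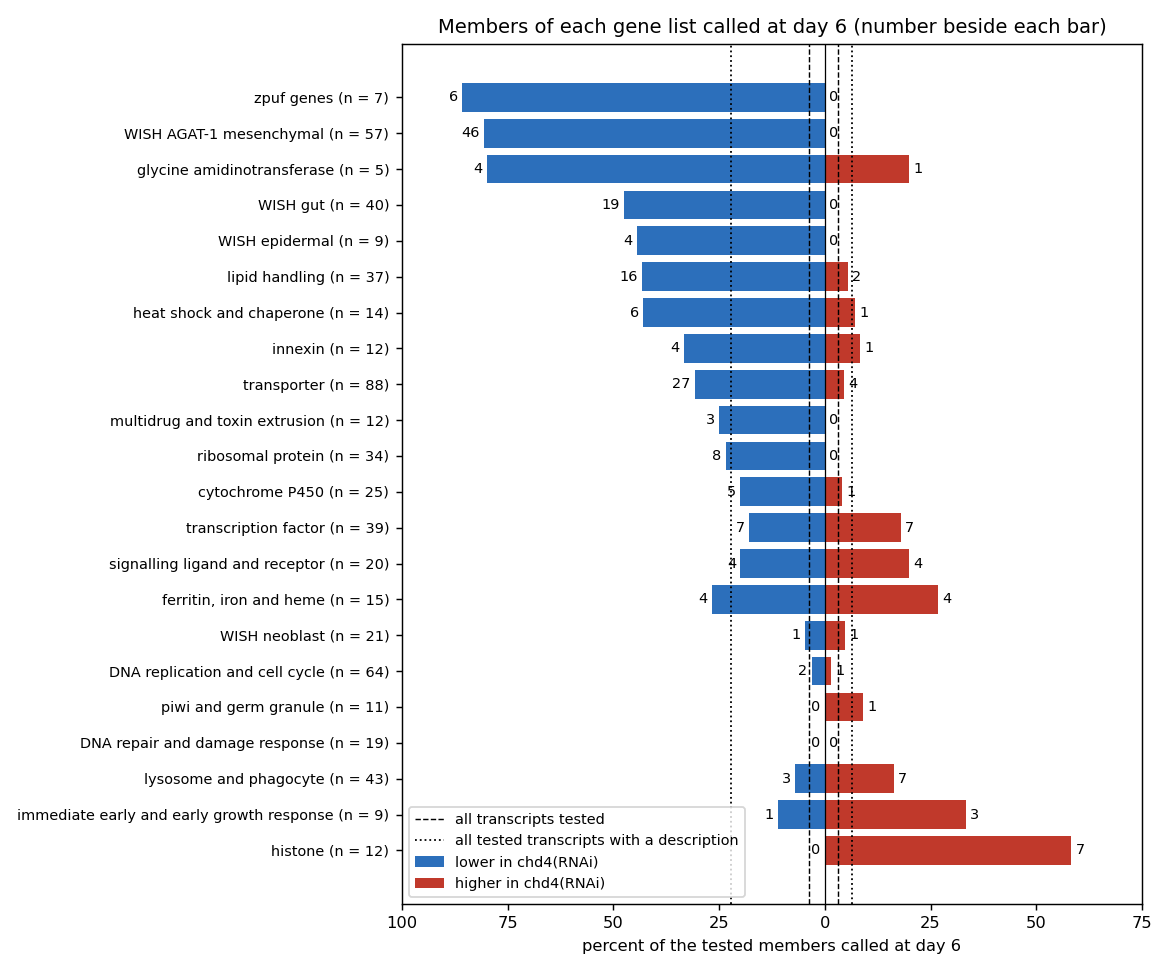
Percent of the tested members of 22 of the 31 gene lists that were called at day 6, lower in *chd4*(RNAi) to the left in blue and higher to the right in red, with the number of members beside each bar; WISH marks lists made from the study's whole-mount in situ hybridization. Dashed lines mark the shares among all transcripts tested (3.84% lower and 3.11% higher) and dotted lines those among transcripts with a description (22.1% and 6.46%); the *zpuf* and *AGAT-1* mesenchymal lists reach furthest to the left and histones furthest to the right.

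Day 6 stood early in the response to *chd4* RNAi. At day 3, 40 transcripts were lower and 45 higher (0.159% and 0.179% of those tested), and at day 9 the numbers were 3125 and 3284 (12.5% and 13.1%). Each day had its own control libraries, so these comparisons share no samples. The test of the difference between the changes at day 6 and day 3 called 85 transcripts whose change was lower and 54 whose change was higher at day 6 (0.339% and 0.215%), and leaving out any 1 of the 12 libraries gave 34 to 92 and 35 to 53, with 34 to 55 lower without any 1 of 8 libraries (the fewest without *chd4*(RNAi) day 6 replicate 3) and 35 higher without *chd4*(RNAi) day 3 replicate 2.

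Core histones had risen by day 3 and rose further. The log2 difference of histone H3 was 2.46 at day 3 and 4.21 at day 6 (adjusted p of the difference = 4.39e-05), and that of histone H2A type 2-C was 2.27 at day 3 and 3.94 at day 6 (adjusted p = 0.000187). For late histone H2B.2.1, with 1.36 at day 3 and 2.03 at day 6, the difference was not detected (adjusted p = 0.405). Ferritin spleen middle subunit changed between these days, with log2 differences of 0.18 at day 3 and 2.32 at day 6 (adjusted p = 9.32e-05).

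The falls were mostly later than the knockdown itself. Hemicentin-1 had a log2 difference of -0.46 at day 3 and -1.86 at day 6 (adjusted p of the difference = 6.52e-09), multidrug and toxin extrusion protein 2 had -0.45 and -1.87 (adjusted p = 0.00176) and Noggin -0.38 and -1.53 (adjusted p = 0.00275). Of the 57 *AGAT-1* mesenchymal transcripts, 1 was called lower at day 3 and 46 at day 6, and for 18 the change at day 6 was lower than that at day 3 by the test of the difference (background 0.339% of all tested, and 55 of the 1595 described). *AGAT-1* itself had -0.25 at day 3 and -0.90 at day 6 (adjusted p of the difference = 0.0101). Of the 40 gut transcripts 3 passed that test.

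Part of these changes differed between day 6 and day 9. The change at day 9 was lower than that at day 6 for 889 transcripts and higher for 523 (3.54% and 2.09%). It was lower at day 9 for 34 of the 40 gut, 21 of the 57 *AGAT-1* mesenchymal and 1 of the 7 *zpuf* transcripts, and higher for 1 of the 12 histone transcripts. Among the 1595 described transcripts it was lower for 522 and higher for 75. The steepest described falls were those of multidrug resistance-associated protein 1 (SMED30000258), with log2 differences of -1.26 at day 6 and -3.85 at day 9 (adjusted p of the difference = 5.94e-09), the L-cysteine desulfhydrase homolog (SMED30027034), with -0.98 and -3.52, and the riboflavin transporter (SMED30034985), with -1.09 and -3.53. Steep rises were those of a ferritin middle subunit (SMED30022321), with 0.73 at day 6 and 2.86 at day 9, soma ferritin (SMED30030028), with 0.73 and 2.55, and innexin unc-9 (SMED30035331), with 1.55 and 3.05. The call of the ferritin middle subunit at day 6 was lost without any 1 of the 6 libraries (highest adjusted p = 0.144, without *chd4*(RNAi) replicate 1). At day 6 the soma ferritin stood on 0.217, 0.4 and 0.575 RPKM in *chd4*(RNAi) and on 0.113, 0 and 0 RPKM in the control. Histone H3 had a log2 difference of 4.21 at day 6 and 5.22 at day 9 (adjusted p of the difference = 0.00519), while for *chd4* itself no difference between the days was detected (adjusted p = 0.954).

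**Figure D4:**
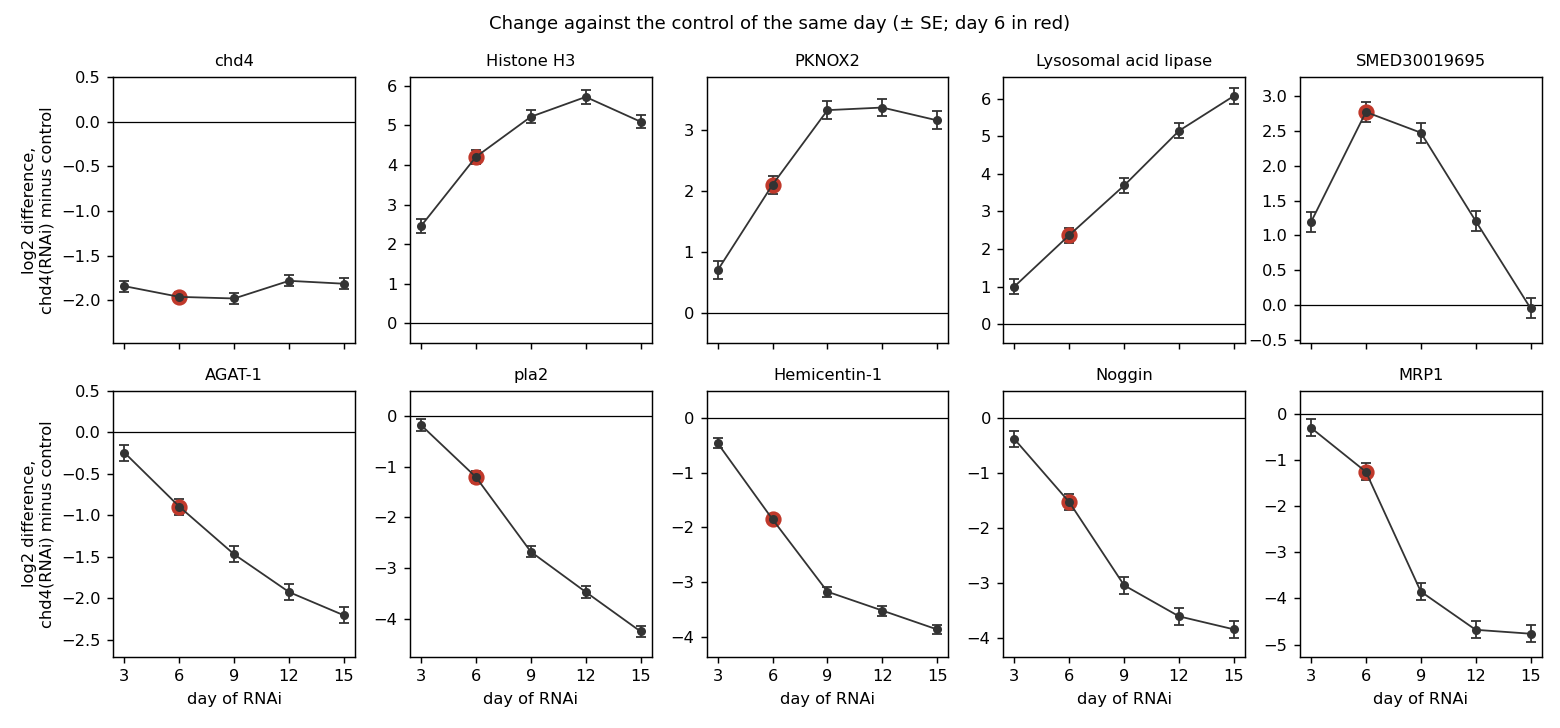
Log2 difference between *chd4*(RNAi) and the control of the same day (vertical axes, log2(RPKM + 0.5), bars ± SE) at days 3, 6, 9, 12 and 15 (horizontal axes) for 10 transcripts, with day 6 in red and MRP1 standing for multidrug resistance-associated protein 1. The knockdown of *chd4* is flat from day 3, the histone H3, PKNOX2 and lysosomal acid lipase rises and the lower row of falls are partway at day 6, and SMED30019695 peaks at day 6.

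Of the transcripts that changed most on late days, part had changed at day 6. Of 729 transcripts that were lower by more than 1 on both day 12 and day 15 (on each day 3.27% and 3.87% of those tested), 316 (43.3%) were called lower at day 6 and 1 was called higher, against 3.84% of all tested transcripts called lower, and their median log2 difference at day 6 was -0.37. At day 3, 5 of them (0.686%) were called lower, and at day 9, 685 (94.0%). Of 312 transcripts that were higher by more than 1 on both late days (1.67% and 1.99% of those tested), 125 (40.1%) were called higher and 2 lower at day 6, with a median of 0.42, against 3.11% of all. At day 3 the share was 6.73% and at day 9 it was 83.3%. Days 12 and 15 share no library with day 6.

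In the other direction, of the 68 transcripts that fell beyond 1 at day 6, 63 were called lower at day 9, and of the 75 that rose beyond 1, 67 were called higher at day 9 and 23 had been called higher at day 3. At day 15, 57 of the 68 were called lower, 10 were not called and 1 was called higher. Of the 75, 56 were called higher at day 15, 17 were not called and 2 were called lower. Over all 25079 tested transcripts, calls of any size at day 9 were 3125 lower and 3284 higher. At day 15 they were 4895 lower and 4486 higher, and at day 3, 45 were higher. SMED30019695 was still up at day 9 and back near the control at day 15, with log2 differences of 1.19 at day 3, 2.77 at day 6, 2.47 at day 9 and 1.21 at day 12, and -0.04 at day 15.

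Compared directly with the *p53*(RNAi) animals of day 6, *chd4*(RNAi) animals had 1227 transcripts lower and 1274 higher (4.89% and 5.08% of those tested). Without *chd4*(RNAi) replicate 3 there were 755 lower, and without *p53*(RNAi) replicate 3 there were 815 lower. Among the 1595 described transcripts, 329 were lower and 178 higher with all libraries in the fit. Both treatments were measured against the same 3 control libraries, so their changes against control are given side by side only. *p53* RNAi gave 538 lower and 270 higher transcripts against control at day 6 (2.15% and 1.08% of those tested). Among the 1595 described, it gave 175 lower and 73 higher. The RNAi target of that group, *p53* (SMED30026364), was at 45.8 ± 2.86 RPKM in *chd4*(RNAi) and 9.26 ± 1.13 RPKM in *p53*(RNAi) (SD, n = 3 each).

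The most strongly raised histones stood far apart between the treatments. Histone H3 was at 55.5, 61.2 and 64.2 RPKM in *chd4*(RNAi) and at 1.77, 1.33 and 1.92 RPKM in *p53*(RNAi), beside 2.98, 2.95 and 2.47 RPKM in the control (log2 difference of *chd4*(RNAi) minus *p53*(RNAi) 4.81, SE 0.17, limma adjusted p = 2.52e-23). Histone H2B.1/H2B.2 (SMED30021461), by comparison, had 33.3, 30.2 and 31.4 RPKM in *chd4*(RNAi), 17.5, 17.4 and 19.0 RPKM in *p53*(RNAi) and 15.2, 14.7 and 12.9 RPKM in the control, where *p53*(RNAi) lay above the control without passing the test (adjusted p = 0.366). Histone H2A type 2-C differed by 4.06 and the H4 transcript SMED30025482 by 3.00 in the same direction. In this direct comparison 7 of the 12 histone transcripts were higher and 4 lower in the *chd4*(RNAi) animals, against 178 and 329 of the 1595 described. Lysosomal acid lipase, ferritin spleen middle subunit, PKNOX2 and cathepsin L were also higher in *chd4*(RNAi) than in *p53*(RNAi), by 1.86, 1.84, 2.02 and 1.77.

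Falls that were deeper in *chd4*(RNAi) than in *p53*(RNAi) included multidrug and toxin extrusion protein 2 (difference -1.54), Hemicentin-1 (-1.18) and Noggin (-0.86). Hemicentin-1 stood at 14.4, 14.6 and 11.5 RPKM in *chd4*(RNAi), at 32.7, 29.9 and 30.4 RPKM in *p53*(RNAi) and at 49.1, 53.3 and 47.2 RPKM in the control. The lipid droplet protein SMED30030128 was at 55.3 ± 1.63 RPKM in *chd4*(RNAi), 106 ± 4.57 RPKM in *p53*(RNAi) and 100.1 ± 4.34 RPKM in the control (SD, n = 3 each; difference between the RNAi groups -0.93, adjusted p = 4.84e-14).

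Of the 57 *AGAT-1* mesenchymal transcripts, 46 were lower in *chd4*(RNAi) and 56 in *p53*(RNAi), each against the shared control, and in the direct comparison 23 were higher and 5 lower in *chd4*(RNAi). Of the 1595 described transcripts, 352 were lower than control in *chd4*(RNAi) and 175 in *p53*(RNAi). In the direct comparison 178 of the 1595 were higher and 329 lower in *chd4*(RNAi). The median log2 difference of the 57 against control was -0.66 in *chd4*(RNAi) and -1.0 in *p53*(RNAi). *AGAT-1* was at 126 ± 8.53 RPKM in *chd4*(RNAi), 124 ± 9.28 RPKM in *p53*(RNAi) and 235 ± 14.8 RPKM in the control (SD, n = 3 each), a log2 difference between the RNAi groups of 0.02 with an SE of 0.10 (adjusted p = 0.935). Differences larger than that SE can also go undetected by this test, so equal levels are not shown. *zpuf-1* was at 74.3 ± 7.53 RPKM in *chd4*(RNAi), 75.5 ± 1.72 RPKM in *p53*(RNAi) and 163 ± 15.8 RPKM in the control (adjusted p between the RNAi groups = 0.943). *zpuf-3* was less affected in *chd4*(RNAi), at 214 ± 21.8 RPKM, than in *p53*(RNAi), at 106 ± 13.0 RPKM, beside 387 ± 46.6 RPKM in the control (log2 difference 1.01, SE 0.18, adjusted p = 8.72e-05), and so was *egr-5*, at 25.4 ± 1.43 RPKM in *chd4*(RNAi), 19.6 ± 0.62 RPKM in *p53*(RNAi) and 36.4 ± 3.19 RPKM in the control (log2 difference 0.36, adjusted p = 0.000191).

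**Figure D5:**
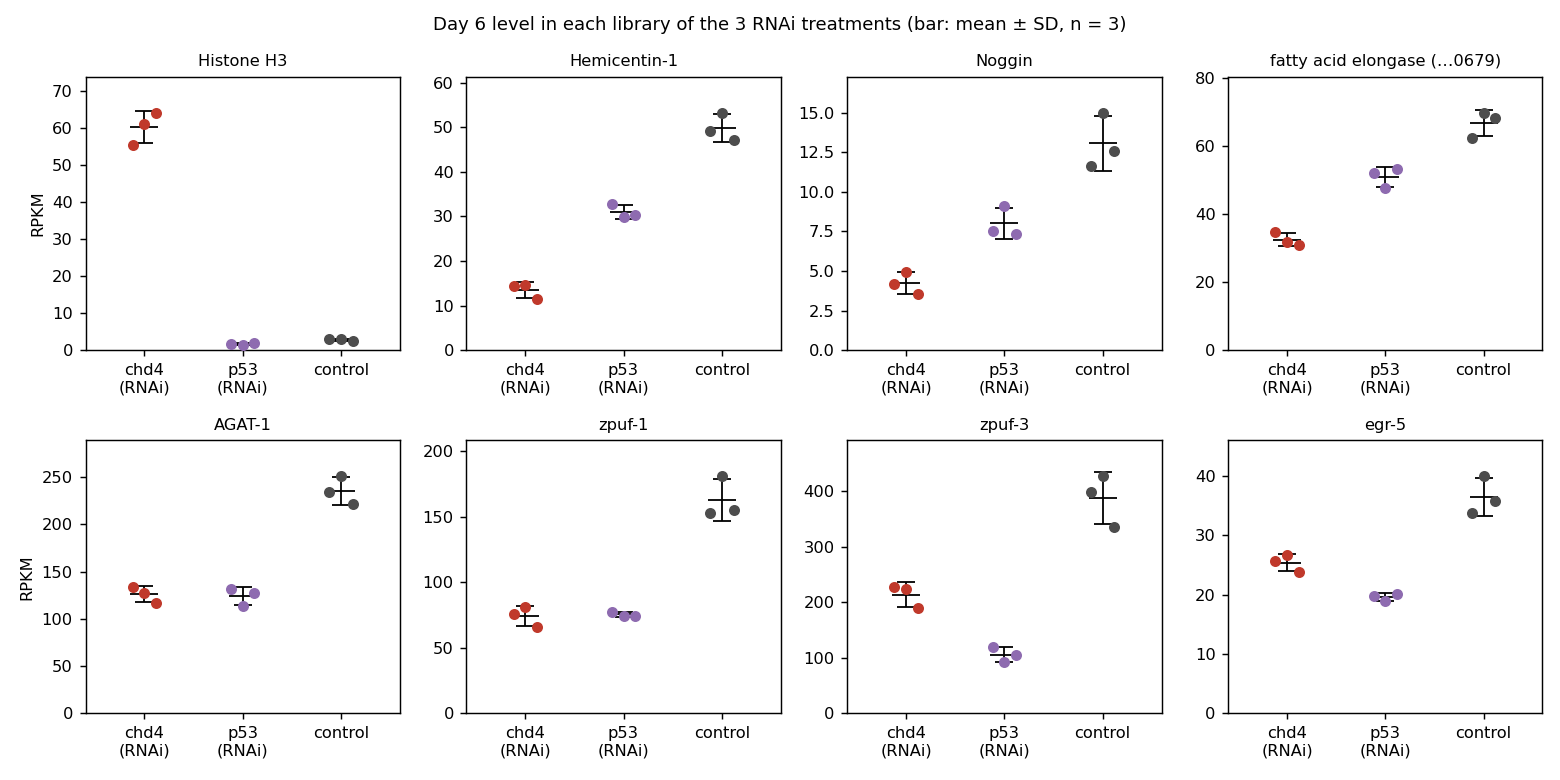
RPKM of 8 transcripts in each day 6 library of *chd4*(RNAi) (red), *p53*(RNAi) (purple) and control (grey); vertical axes start at 0 and bars are mean ± SD, n = 3. Histone H3 is high in *chd4*(RNAi) alone among these groups, Hemicentin-1, Noggin and the elongase are lowest in *chd4*(RNAi), *AGAT-1* and *zpuf-1* lie at similar levels in both RNAi groups, and *zpuf-3* and *egr-5* are lowest in *p53*(RNAi).

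Cell cycle genes separated the treatments as well. In the direct comparison 33 of the 64 DNA replication and cell cycle genes were lower and 1 was higher in the *chd4*(RNAi) libraries, while 10 were called higher than control in *p53*(RNAi) and 1 in *chd4*(RNAi). Of the 1595 described transcripts, 329 were lower and 178 higher in the direct comparison. Against control, 73 of the 1595 were higher in *p53*(RNAi) and 103 in *chd4*(RNAi). Ribonucleotide reductase (SMED30026659) had log2 differences against control of -0.35 in *chd4*(RNAi) and 0.46 in *p53*(RNAi). Of 11 piwi and germ granule genes 9 stood lower and 1 stood higher in the *chd4*(RNAi) animals, while *smedwi-1* was not among those called (adjusted p = 0.478).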

How the data were processed

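Whole worms were collected in 3 replicates per RNAi treatment and day, each a pool of 10 animals, and 50 bp single reads were made from poly(A)-selected, stranded libraries. Per the labels and the study's methods, the authors used CASAVA 1.8.2, aligned reads to assembled transcripts with Bowtie (up to 2 mismatches, reads matching at most 5 places kept), counted them per transcript and deposited RPKM values. The genome build was not given in the sources used here, and whole counts were not used here, since the deposited table holds RPKM.

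The table holds 35057 transcripts in 50 libraries of 17 groups. All 17 groups were fitted together with limma 3.58.1 (R 4.3.3, intensity trend) on log2(RPKM + 0.5), over the 25079 transcripts that reached 1 RPKM in 2 or more libraries. P-values were two-sided, with Benjamini-Hochberg adjustment for each contrast separately. The fit was tested on simulated data. An exact permutation test of 3 against 3 libraries cannot go below p = 0.1 and was not used. The read depth of each library was recovered from the spacing of its RPKM values, with 17932 transcripts for which a step was found. Of their values above 0, 100% were whole reads within 0.01. These transcripts were kept because their values were whole multiples of a step, so that share is no check of the depths. Depth limits precision most below 1 RPKM, where a library holds few reads of a transcript. The alternatives were pseudocounts of 0.1 and 2, no filter, a stricter filter, median-ratio scaling, a fit of only the groups compared, the replicate number as a block and each library left out.

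Transcript descriptions, staining patterns and primer sequences came from the study's supplementary tables, and no value was taken from them. Named were *chd4*, *p53*, *smedwi-1*, the genes with an abbreviation in the study, the 10 largest described and 4 largest undescribed changes each way, up to 4 called members of each list and the 3 largest changes each way in each difference. The 10 and the 4 were taken only from calls whose treated and control libraries did not overlap. They also needed a mean of at least 1 RPKM in the higher group. The comparison, its members and its lists were chosen with earlier results of these data known. Tables and figures were made with Python 3.11.15, pandas 2.3.3, numpy 2.4.6 and matplotlib 3.10.9.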

Additional observations from a re-analysis of the deposited data

Results flagged for a closer look

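The change caused by *chd4* RNAi differed between neighbouring days by limma's test of the difference itself, and each value here is that difference on the log2(RPKM + 0.5) scale. Between day 6 and day 3, 85 transcripts had a lower and 54 a higher change at day 6. The largest described differences below 0 were those of multidrug and toxin extrusion protein 2 (SMED30019939; -1.42), Hemicentin-1 (SMED30024938; -1.39) and Noggin (SMED30004408; -1.15). Those above 0 were led by ferritin spleen middle subunit (SMED30013255; 2.14), histone H3 (SMED30021776; 1.75) and histone H2A type 2-C (SMED30011413; 1.67).

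Between day 9 and day 6, 889 transcripts had a lower and 523 a higher change at day 9. Multidrug resistance-associated protein 1 (SMED30000258; -2.60), the L-cysteine desulfhydrase homolog (SMED30027034; -2.54) and the riboflavin transporter (SMED30034985; -2.44) were lower still at day 9, and a ferritin middle subunit (SMED30022321; 2.13), soma ferritin (SMED30030028; 1.83) and innexin unc-9 (SMED30035331; 1.51) were higher still. Both ferritins were under 1 RPKM in all 6 libraries of day 6.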

How the results depend on the processing

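With 1 library of the groups compared left out in turn, the day 6 counts were 504 to 881 lower and 485 to 685 higher, and beyond 1 they were 54 to 82 lower and 73 to 82 higher. For day 6 minus day 3 they were 34 to 92 lower and 35 to 53 higher, for day 9 minus day 6 they were 711 to 924 and 372 to 448, and for *chd4*(RNAi) against *p53*(RNAi) they were 755 to 1003 lower and 906 to 1041 higher. Of the transcripts changed late, 217 to 335 of the lost and 103 to 132 of the gained set were called at day 6, leave-outs of day 12 and 15 libraries (an alternative chosen after seeing the data) included. A fit of only the groups compared, which has fewer samples to estimate the spread, gave 499 lower and 268 higher at day 6 and 143 lower for day 6 minus day 3. With a pseudocount of 2, 15 transcripts were lower and 26 higher beyond 1 at day 6 and 82 of the gained set were called; with a pseudocount of 0.1, 121 were higher beyond 1. A larger pseudocount shrinks differences of low transcripts by construction. Replicate numbers did not pair the samples: the deviations of same-numbered libraries correlated at -0.0355, 0.0458 and 0.145. The replicate block gave 1108 lower and 839 higher at day 6, and ended the call of 0 named transcripts, while the fit of only the groups compared ended 27 named calls. Under that fit the falls on the ribosomal list were 0 (8 in the fit of all groups), on the heat shock list 1 (6), on the NuRD list 1 (3), on the ferritin list 1 (4), on the transposon list 0 (3) and on the apoptosis list 0 (2), and those on the transporter list 16 (27). Of the 114 named transcripts called at day 6, 81 were called whichever library was left out. Under the alternatives, 0 named values changed sign where the main fit or the alternative called them. Sign changes of values that neither fit called, such as those close to 0, were not counted. Transcripts under 1 RPKM rest on few reads, which limits how firmly their changes can be read.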
